A study of Arabidopsis thaliana with 12 samples.

Results

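The heat shock chaperone genes described here are 10 Arabidopsis thaliana genes, taken from the 33602 genes of the count table by their locus codes. They are the heat stress transcription factor HSFA2, the chaperones HSP90.1, HSP101, HSP70-4 and HSP70B, the small heat shock proteins HSP21, HSP17.8, HSP17.6II and HSP17.4, and AT1G72416, which the annotation describes as a DnaJ-domain gene. The genes were picked with values from these same libraries in view, so their levels and fold changes are given as a description and carry no test. Of the 10 genes, 8 passed the filter on low counts and HSP21 and HSP17.6II did not. HSFA2 passed it only through the libraries labelled untreated Col-0, and HSP17.8 only through those labelled Col-0, so both had to stand higher there.

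Messenger RNA was sequenced from whole plants of 2 weeks of age, in 4 groups of 3 libraries that the series design calls biological replicates. Both genotypes share the Col-0 background: Col-0 is the reference accession, and rdd is a triple mutant, by that name lacking the DNA demethylases ROS1, DML2 and DML3. Plants of each grew in regular soil (untreated, "control" in the plots) or in soil with YC4-R4 added (treated), and the series title speaks of beneficial rhizobacteria, active DNA demethylation and myo-inositol. No heat treatment is described in the labels. Neither the number of plants pooled in a library nor the hour of harvest is given in the sources used here, so genotype or treatment cannot be told apart from growth stage or hour where these differed with the group.

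Library totals ran from 14465710 to 20281801 counts. The biological coefficient of variation within a group was 3.07% for the libraries labelled untreated Col-0, 2.57% for treated Col-0, 3.21% for untreated rdd and 5.81% for treated rdd. In control soil ROS1 and DML2 did not pass the test between genotypes, and DML3, also counted in rdd, was lower there. ROS1 stood at 82.0 ± 3.94 CPM (SD, n = 3), counts scaled to a common library total, in the libraries labelled untreated Col-0 and at 79.9 ± 2.23 in those labelled untreated rdd, a log2 difference of -0.04 ± 0.05 (SE; edgeR adjusted p = 0.521). DML2 differed by 0.05 ± 0.08 in the same comparison (edgeR adjusted p = 0.665) and DML3 by -0.50 ± 0.20 (edgeR adjusted p = 0.0431), with 4.50 to 5.89 CPM in untreated Col-0 and 3.41 to 3.67 in untreated rdd. With YC4-R4 the DML3 levels of the genotypes overlapped, at 0.316 to 1.07 CPM in treated Col-0 and 0.267 to 0.953 in treated rdd. ROS1 stood at 68.2 to 71.3 CPM in treated Col-0 and 72.7 to 76.1 in treated rdd, and DML2 at 11.5 to 14.2 and 13.0 to 13.9. A count over a whole gene need not show the lesion, so "rdd" below always means the libraries labelled rdd. Levels are CPM after TMM scaling, a correction for library composition, given as mean ± SD of 3 libraries, and the error after a log2 value is its standard error.

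Heat shock proteins are molecular chaperones: they hold, unfold or refold other proteins, and many are made in quantity when cells are heated. In plants, heat stress transcription factors of class A bind heat shock elements, which are inverted repeats of the pentamer nGAAn, and switch these genes on. HSFA2 is itself induced by heat and keeps the response going, HSP101 pulls proteins out of aggregates together with the small heat shock proteins and HSP70, and HSP90 chaperones signalling proteins and keeps class A1 factors in check. In unstressed leaves most of these genes are known to be transcribed at a low rate.

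The promoter windows show which of the genes hold an exact match to the heat shock element near the annotated start. Imperfect or more distant elements were not searched for. Windows of 300 bases, from 250 before the annotated start to 50 from it on, were read from the TAIR10.1 genome for all 10 genes, and searched on both strands for the 2-unit heat shock element, GAANNTTC or TTCNNGAA, and for the 3-unit element, which is GAANNTTC followed by NNGAA or TTCNNGAA followed by NNTTC. Both 2-unit forms read the same on either strand, the 3-unit forms are each other's complement, and each 3-unit match holds an overlapping pair of 2-unit matches. The following windows are of 5 genes chosen to show the range: those of HSFA2 (chr2:11135374-11135673, plus strand), HSP70-4 (chr3:3993837-3994136, minus strand) and HSP17.4 (chr3:16984818-16985117, minus strand) hold the 3-unit element, that of AT1G72416 (chr1:27260472-27260771, minus strand) holds a 2-unit form, and that of HSP70B (chr1:5504486-5504785, minus strand) holds none. They run 5′ to 3′ along the gene's strand, and capitals mark the matches.
HSFA2: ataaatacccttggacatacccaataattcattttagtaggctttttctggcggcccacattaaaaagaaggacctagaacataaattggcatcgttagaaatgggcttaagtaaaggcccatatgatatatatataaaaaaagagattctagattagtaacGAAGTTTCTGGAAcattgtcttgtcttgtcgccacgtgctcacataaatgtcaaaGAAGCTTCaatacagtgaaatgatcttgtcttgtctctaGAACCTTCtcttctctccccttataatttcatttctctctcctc
HSP70-4: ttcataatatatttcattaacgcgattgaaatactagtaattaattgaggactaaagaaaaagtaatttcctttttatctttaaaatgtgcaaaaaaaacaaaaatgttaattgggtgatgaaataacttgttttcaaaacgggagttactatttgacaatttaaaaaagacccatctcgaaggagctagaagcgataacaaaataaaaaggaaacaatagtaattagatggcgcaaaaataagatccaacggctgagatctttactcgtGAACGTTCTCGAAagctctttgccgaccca
HSP17.4: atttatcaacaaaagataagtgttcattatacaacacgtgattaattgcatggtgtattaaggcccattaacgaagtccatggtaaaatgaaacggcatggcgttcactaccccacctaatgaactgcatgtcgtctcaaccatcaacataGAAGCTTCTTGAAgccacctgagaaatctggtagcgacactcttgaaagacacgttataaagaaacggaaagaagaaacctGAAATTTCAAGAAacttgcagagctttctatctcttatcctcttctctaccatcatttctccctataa
AT1G72416: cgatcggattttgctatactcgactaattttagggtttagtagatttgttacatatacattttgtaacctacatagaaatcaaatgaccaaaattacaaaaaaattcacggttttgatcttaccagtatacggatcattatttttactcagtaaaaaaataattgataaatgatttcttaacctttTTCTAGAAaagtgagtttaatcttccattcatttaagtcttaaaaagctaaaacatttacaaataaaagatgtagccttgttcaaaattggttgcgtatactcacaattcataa
HSP70B: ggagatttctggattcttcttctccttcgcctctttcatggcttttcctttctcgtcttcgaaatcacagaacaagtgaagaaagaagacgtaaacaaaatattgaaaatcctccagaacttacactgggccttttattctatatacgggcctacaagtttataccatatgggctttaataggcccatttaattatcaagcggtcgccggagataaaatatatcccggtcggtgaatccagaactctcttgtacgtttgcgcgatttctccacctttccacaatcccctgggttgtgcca

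In HSFA2 the 3-unit match lay 88 to 76 bases before the start, and 2-unit matches lay 33 to 26 bases before it and 7 to 14 bases after it. HSP17.4 held 3-unit matches 99 to 87 and 18 to 6 bases before its start, and HSP70-4 held one 21 to 33 bases after it. HSP101 held a 2-unit match 30 to 37 bases after its start, and HSP21 held 2-unit matches 100 to 93 bases before and 27 to 34 bases after. The match of AT1G72416 lay 64 to 57 bases before its start. No match lay in the windows of HSP90.1, HSP70B, HSP17.8 and HSP17.6II, which says only that these letters are not there. The annotated HSP90.1 gene starts at its coding sequence, so its window may not be centred on the start of transcription. A 3-unit match was found in 132 of 27443 protein-coding promoters (0.481%), in 3 of the 10 genes and in 9 of 104 other chaperone and heat stress genes (8.65%). A 2-unit match was found in 5287 of the 27443 (19.3%), in 6 of the 10 and in 35 of the 104 (33.7%).

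**Figure D1:**
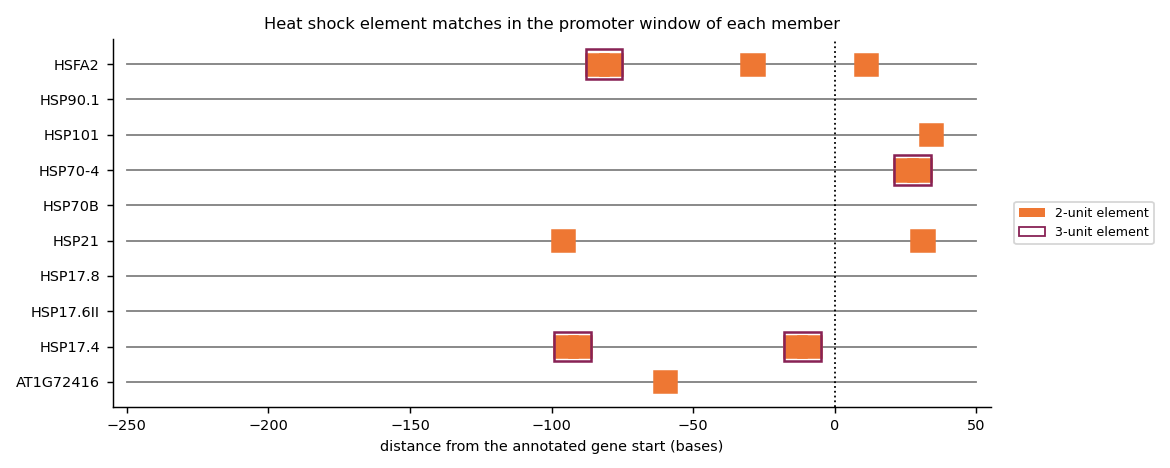
Positions of heat shock element matches in the promoter window of each of the 10 genes, as distance in bases from the annotated start (dotted line). Filled boxes are 2-unit matches and outlined boxes 3-unit matches; HSFA2, HSP70-4 and HSP17.4 hold the 3-unit form, and 4 genes hold neither.

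HSFA2 (AT2G26150, chromosome 2, 11135624 to 11137792, plus strand, 4 coding exons), the heat-induced activator of the response, was close to the detection limit in every group. It had 13, 13 and 13 counts in the libraries labelled untreated Col-0 (0.672, 0.729 and 0.785 CPM), and 6, 4 and 4 counts in treated Col-0 (0.307, 0.250 and 0.253 CPM). The libraries labelled untreated rdd had 2, 2 and 9 counts (0.136, 0.105 and 0.496 CPM), and those labelled treated rdd had 2, 2 and 4 (0.119, 0.107 and 0.192 CPM). All 3 untreated Col-0 libraries lay above all 9 others, which overlapped among themselves except that every treated Col-0 library lay above every treated rdd library. The log2 fold change was -1.39 ± 0.47 with YC4-R4 in Col-0. For rdd against Col-0 it was -1.51 ± 0.48 in control soil and -0.91 ± 0.66 with YC4-R4. With YC4-R4 in rdd it was -0.79 ± 0.68, with overlapping libraries, and this value turned to 0.25 when untreated rdd replicate 3 was left out. Without that library the difference between rdd and Col-0 in control soil was -2.55.

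HSP90.1 (AT5G52640, chromosome 5, 21352557 to 21355147, plus strand), the heat-inducible cytosolic HSP90, separated the libraries mainly by genotype label. It stood at 34.8, 35.6 and 35.1 CPM in untreated Col-0, 33.1, 34.4 and 31.2 in treated Col-0, 18.3 to 20 in untreated rdd, and 15.5 to 15.9 in treated rdd. No library of one group reached into another, so the order was untreated Col-0, treated Col-0, untreated rdd and treated rdd. The step between the Col-0 groups was small, -0.10 ± 0.06 on the log2 scale, and that between the rdd groups was -0.28 ± 0.07. Between genotypes the log2 difference was -0.88 ± 0.06 in control soil and -1.07 ± 0.07 with YC4-R4.

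HSP70-4 (AT3G12580, named HSP70 in the annotation, chromosome 3, 3991117 to 3993886, minus strand), a cytosolic HSP70, had the same order of groups with wider steps. Its levels were 38.0, 40.8 and 40.6 CPM in untreated Col-0, 27.6, 28.7 and 27.7 in treated Col-0, 15.2, 14 and 12 in untreated rdd and 9.29, 8.65 and 8.66 in treated rdd. The groups did not overlap. The log2 change with YC4-R4 was -0.51 ± 0.07 in Col-0 and -0.63 ± 0.09 in rdd. The difference between rdd and Col-0 was -1.54 ± 0.07 in control soil and -1.66 ± 0.08 with YC4-R4, the lowest of the 8 genes that passed the filter in that soil.

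HSP70B (AT1G16030, chromosome 1, 5501966 to 5504535, minus strand, 1 coding exon), another heat-induced cytosolic HSP70, did not separate any of the groups. It stood at 5.74, 7.80 and 5.74 CPM in untreated Col-0, 5.87, 6.62 and 7.46 in treated Col-0, 6.96, 6.09 and 6.28 in untreated rdd and 7.14, 7.16 and 5.91 in treated rdd. The group means, between 6.42 and 6.74 CPM, lay closer together than the libraries of a group. Its 4 log2 fold changes ran from -0.002 to 0.065, each with a standard error of 0.14. The coding sequences of HSP70-4 and HSP70B are 76.6% identical, and no exon stretch of 50 bases of either occurs elsewhere in the genome.

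HSP101 (AT1G74310, chromosome 1, 27936508 to 27940369, minus strand), the disaggregase of the cytosol, stood at 10.4, 11.4 and 12.6 CPM in untreated Col-0 and 7.20, 8.19 and 7.71 in treated Col-0. The untreated rdd libraries had 6.14, 5.25 and 7.10 CPM, and the treated rdd libraries 6.07, 5.29 and 5.67. The groups ran from untreated Col-0 over treated Col-0 to the rdd groups, which overlapped each other and lay below both Col-0 groups. With YC4-R4 the log2 change was -0.57 ± 0.12 in Col-0 and -0.12 ± 0.13 in rdd, and rdd differed from Col-0 by -0.89 ± 0.12 in control soil and -0.44 ± 0.13 with YC4-R4. HSP101 overlaps AT1G74300, which is in the count table too, and the strand setting of the counting is not given in the sources used here. Of its 3068 exon words of 50 bases, 6 occur elsewhere in the genome (0.196%).

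The 4 small heat shock proteins, which bind unfolding proteins and keep them soluble, had few counts. HSP17.4 (AT3G46230, chromosome 3, 16984118 to 16984867, minus strand), a cytosolic class I protein, had 33, 41 and 33 counts in untreated Col-0 (1.71, 2.30 and 1.99 CPM) and 13, 7 and 16 in treated Col-0 (0.664, 0.437 and 1.01 CPM). It had 12, 6 and 7 counts in untreated rdd (0.819, 0.315 and 0.385 CPM) and 13, 4 and 12 in treated rdd (0.774, 0.214 and 0.577 CPM). The untreated Col-0 libraries lay above the other 9, which overlapped across their groups. The log2 change was -1.50 ± 0.34 with YC4-R4 in Col-0 and 0.09 ± 0.47 with YC4-R4 in rdd. For rdd against Col-0 it was -2.03 ± 0.36 in control soil and -0.44 ± 0.43 with YC4-R4, where the libraries overlapped. HSP17.4 overlaps AT3G46220, which is also in the count table, so its count may depend on how reads in the overlap were assigned.

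HSP17.8 (AT1G07400, chromosome 1, 2274926 to 2275783, plus strand), also of class I, had 18, 17 and 18 counts in untreated Col-0 and 13, 14 and 15 in treated Col-0. It had 7, 8 and 4 counts in untreated rdd and 6, 7 and 8 in treated rdd. Mean levels were 0.990 ± 0.085, 0.829 ± 0.148, 0.373 ± 0.135 and 0.372 ± 0.014 CPM in the same order, and every Col-0 library lay above every rdd library. Within a genotype the treatments overlapped, with log2 changes of -0.27 ± 0.33 in Col-0 and 0.02 ± 0.47 in rdd. Between genotypes the values were -1.41 ± 0.39 in control soil and -1.12 ± 0.39 with YC4-R4. Its coding sequence is 72% identical to that of HSP17.4, and no exon word of 50 bases is shared with another place in the genome.

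HSP17.6II (AT5G12020, chromosome 5, 3882231 to 3883111, minus strand), a cytosolic class II protein, did not pass the filter, and its counts were 7, 5 and 5 in untreated Col-0, 3, 2 and 2 in treated Col-0, 1, 6 and 6 in untreated rdd and 3, 1 and 5 in treated rdd. Both Col-0 groups were apart, at 0.280 to 0.362 CPM and 0.125 to 0.153 CPM, while the rdd groups overlapped each other at 0.0682 to 0.330 and 0.0534 to 0.240 CPM. HSP21 (AT4G27670, chromosome 4, 13818825 to 13819971, minus strand), the small heat shock protein of the chloroplast, had 1 count in untreated Col-0, 1 in treated Col-0, 0 in untreated rdd and 4 in treated rdd, each summed over 3 libraries. A count of 0 over the untreated rdd group allows up to 0.0578 CPM (3 counts, counting error only), so differences of HSP21 were not detectable at this depth.

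AT1G72416 (chromosome 1, 27258747 to 27260521, minus strand) carries a J domain, the part of co-chaperones that stimulates HSP70, and its pattern was unlike that of the other 9. It had 566, 571 and 536 counts in untreated Col-0 (29.3, 32.0 and 32.4 CPM) and 2136, 1794 and 1675 in treated Col-0 (109.1, 112.1 and 105.9 CPM). It had 4942, 5903 and 5390 counts in untreated rdd (337.2, 309.7 and 296.8 CPM) and 1734, 2122 and 2311 in treated rdd (103.2, 113.3 and 111.1 CPM). The untreated rdd libraries were the highest and the untreated Col-0 libraries the lowest, and the 6 YC4-R4 libraries of both genotypes overlapped between them. With YC4-R4 the log2 change was 1.81 ± 0.06 in Col-0 and -1.52 ± 0.05 in rdd. In control soil rdd stood 10.1-fold above Col-0 (log2 fold change 3.33 ± 0.05), and with YC4-R4 the log2 difference was 0.00 ± 0.05. Comparisons that share a group share its libraries, so the rise in Col-0 and the difference in control soil both rest on the 3 untreated Col-0 libraries.

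**Figure D2:**
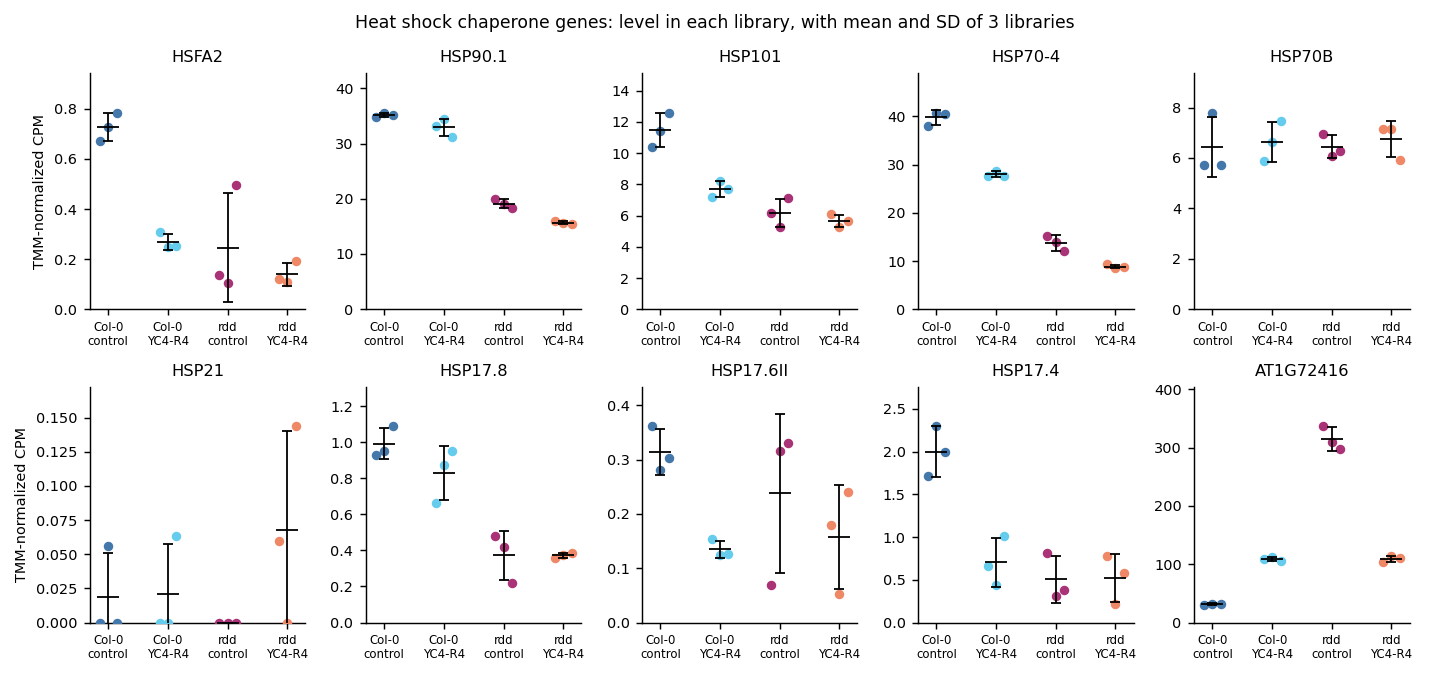
TMM-normalized CPM of the 10 genes in each of the 12 libraries (points), with the mean and SD of 3 libraries per group (bars); each panel has its own axis. HSP90.1 and HSP70-4 fall in 4 separate steps, HSP70B is level, and AT1G72416 runs from 31.2 CPM in untreated Col-0 to 314.6 CPM in untreated rdd.

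Per kilobase of exon, AT1G72416 was the most abundant of the 10 in all 4 groups, at 22.3, 77.9, 224.8 and 78.1 CPM per kilobase in untreated Col-0, treated Col-0, untreated rdd and treated rdd. On the same scale HSP90.1 stood at 16.7, 15.6, 9.10 and 7.46, and HSP70-4 at 15.8, 11.1, 5.45 and 3.52. HSP101 ran from 3.41 down to 1.69 and HSP70B from 2.50 to 2.62, while HSFA2 did not exceed 0.388 CPM per kilobase. HSP70-4 thus stood above HSP70B in all 4 groups, by a narrower margin in the libraries labelled treated rdd. The summed level of the 9 genes other than AT1G72416 was 92.6 to 99.9 CPM in untreated Col-0, 75.6 to 79.6 in treated Col-0, 45.2 to 49.8 in untreated rdd and 37.3 to 39.9 in treated rdd. Most of that sum is HSP90.1 and HSP70-4.

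Of the 8 genes that passed the filter, 5 were lower and 1 higher in every treated Col-0 library than in every untreated Col-0 library, where 23.1% and 20.1% of all tested genes were. In rdd, 3 fell below and 0 rose above every untreated library, against 21.2% and 20% of all tested genes. Between genotypes in control soil 6 were lower and 1 higher (26.9% and 25.7% of all tested genes), and with YC4-R4 5 were lower and 0 higher (19.3% and 19.7%). Nothing is read from these counts, since the genes were chosen with their values known and the filter kept HSFA2 and HSP17.8 only where they were high.

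**Figure D3:**
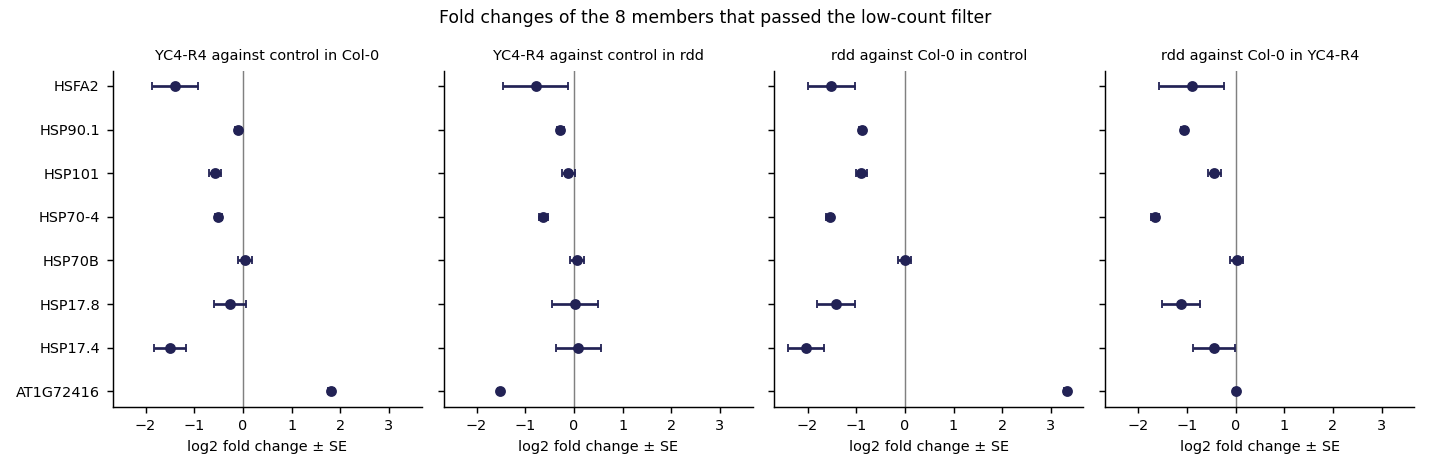
Log2 fold changes with standard errors for the 8 genes that passed the low-count filter, in the 4 pairwise comparisons (vertical line at 0). AT1G72416 lies at 1.81 in Col-0 and -1.52 in rdd with YC4-R4, HSP70B at 0 in all panels, and bars are wide for HSFA2, HSP17.8 and HSP17.4, which had few counts.

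In bulk RNA of whole plants, fewer cells of a type and less RNA per cell cannot be told apart. The summed level of 6 leaf genes was 15987.4 to 17174.7 CPM in untreated Col-0, 13434.6 to 13865.2 in treated Col-0, 12155.5 to 13015.4 in untreated rdd and 12537.0 to 13056.0 in treated rdd. That of 10 root genes was 1216.7 to 1248.8, 1107.7 to 1127.1, 1014.9 to 1066.9 and 1061.4 to 1079.9 CPM in the same order. All 16 of these markers were tested genes and none was at 0 in a group. Both sums were highest in untreated Col-0, and they rest on PYK10 (root) and on RBCS1A, LHCB1.1 and LHCB2.1 (leaf). The other 9 root genes summed to 88.9 to 93.8 CPM in untreated Col-0, 85.9 to 94.4 in treated Col-0, at most 100.5 in untreated rdd and 97.2 to 101.5 in treated rdd. Among them EXPA7 stood at 0.933 ± 0.047 CPM in untreated Col-0 and 2.05 ± 0.40 in untreated rdd, and IRT1 at 1.80 ± 0.57 and 3.84 ± 0.41. Both are low beside the sum and do not stand for the 9, of which the rest are not given singly. The sums of the 9 overlapped between untreated Col-0 and untreated rdd, while the sum of all 10 root genes was lower in untreated rdd. The other 3 leaf genes summed to 22.3 to 25.5 CPM in untreated Col-0, 29.0 to 32.4 in treated Col-0, at most 28.6 in untreated rdd and 26.8 to 29.4 in treated rdd, and were lowest in untreated Col-0. The part of these markers in the results was not tested. Of 5 seed markers 0 passed the filter, and of 5 flower markers 1 did.

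The wider chaperone and heat stress families were read from 9 lists of 104 other genes, of which 94 were tested. The lists too were drawn up with earlier results of these data at hand. The shares called and the adjusted p-values of single list genes therefore describe these genes and are no independent support for a direction. Each gene's test is the one across all genes (edgeR, with a call where the adjusted p was below 0.05). Of the list genes named below, HSFA3, HSFB2B, HSFC1, HSC70-3, J8, AT2G20560, MBF1C, DREB2A and CLPB3 overlap another gene of the count table. Their counts may depend on how reads in the overlap were assigned. With YC4-R4 in Col-0, 13 of the 94 were called higher and 28 lower (43.6% called), against 12.9% and 16.9% of all tested genes (29.8% called). In rdd, 11 were higher and 34 lower (47.9%), against 15.1% and 17.1% (32.2%). Between genotypes, 12 were higher and 52 lower in rdd in control soil (68.1%), against 20.9% and 23.0% (43.9%), and 8 were higher and 48 lower with YC4-R4 (59.6%), against 14.3% and 14.4% (28.7%). The change with YC4-R4 differed between the genotypes for 36 of the 94 (38.3%), 17 with a higher and 19 with a lower value in rdd, against 16.2% and 14.4% of all tested genes (30.6%). The median log2 fold change of the 94 genes was -0.07, -0.10, -0.24 and -0.20 in these comparisons, while the median of all tested genes was within 0.01 of 0. The counts per list that follow are to be read against these same shares of all tested genes, and no list was tested as a set.

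**Figure D4:**
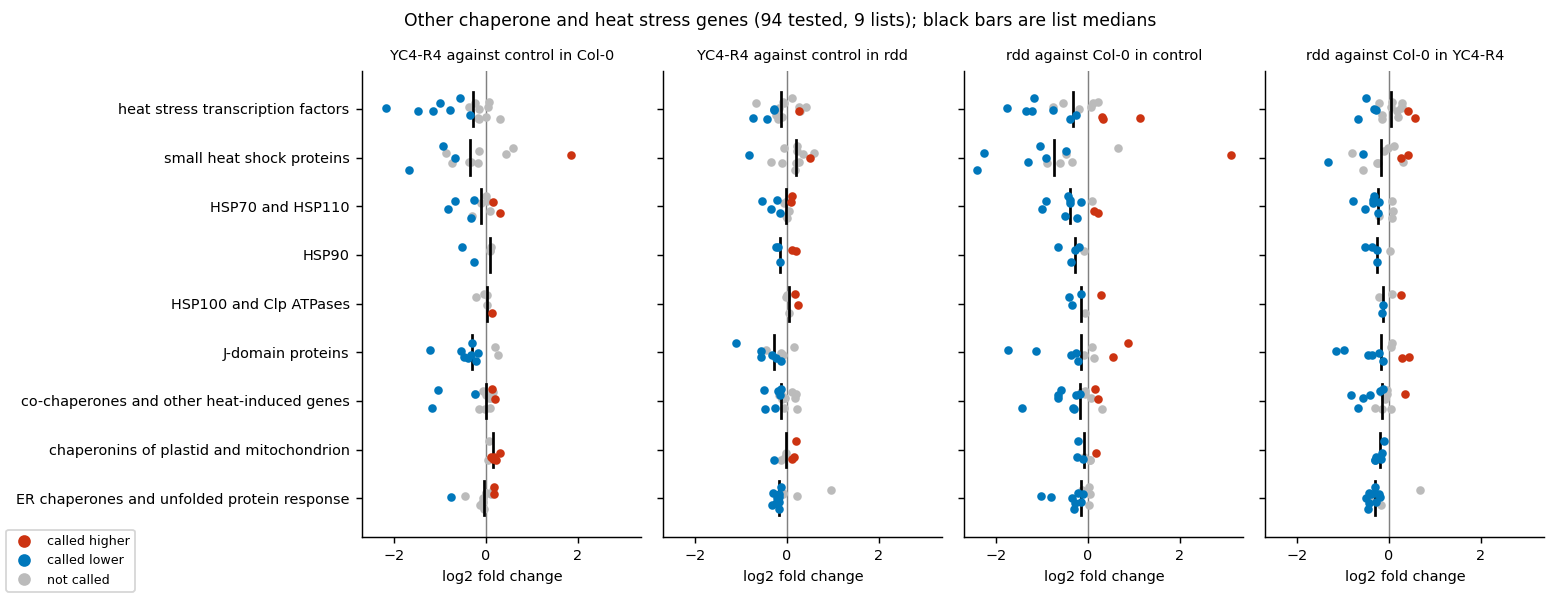
Log2 fold changes of the 94 tested genes of 9 chaperone and heat stress lists in the 4 pairwise comparisons; points are genes, colours give the edgeR call at an adjusted p under 0.05, and black bars are list medians. Called genes are mostly lower in rdd than in Col-0, with 52 lower and 12 higher in control soil.

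Among 16 tested heat stress transcription factors, 7 fell and 0 rose with YC4-R4 in Col-0 (43.8% called, against 29.8% of all tested genes). In rdd 1 rose and 4 fell (31.2% called, against 32.2%). Between genotypes, 3 were higher and 7 lower in rdd in control soil, and 2 higher and 4 lower in treated plants. HSFB2A, a class B repressor, stood at 22.7 ± 1.00 CPM in untreated Col-0, 4.96 ± 0.65 in treated Col-0, 6.69 ± 0.81 in untreated rdd and 6.02 ± 0.95 in treated rdd. It fell by 2.18 ± 0.11 on the log2 scale with YC4-R4 in Col-0 (edgeR adjusted p = 6.3e-18). HSFB2B, its class B relative, fell by 1.48 ± 0.13 (edgeR adjusted p = 4.8e-12), and HSFA8 fell by 1.14 ± 0.08 (edgeR adjusted p = 7.8e-14). HSFA7A moved the other way between genotypes: it stood at 6.70 ± 0.72 CPM in untreated Col-0 and 14.6 ± 1.42 in untreated rdd, and in rdd it fell by 0.74 ± 0.11 with YC4-R4 (edgeR adjusted p = 2.4e-06). HSFC1 was below its Col-0 level in rdd in both soils, by -1.16 ± 0.08 in control (edgeR adjusted p = 3.5e-14) and -0.50 ± 0.09 with YC4-R4 (edgeR adjusted p = 2.4e-05). HSFA3 was lower in rdd with YC4-R4 (-0.66 ± 0.10; edgeR adjusted p = 2.1e-06).

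Of 12 tested small heat shock proteins, 1 rose and 3 fell with YC4-R4 in Col-0, and 1 rose and 1 fell in rdd (16.7% called, against 32.2% of all tested genes). In rdd against Col-0, 1 was higher and 6 lower in control soil, and 2 were higher and 2 lower in treated plants. The gene higher in control soil was HSP15.4, at 15.9 to 21.1 CPM in untreated Col-0, 65.5 ± 3.39 in treated Col-0, 155.6 ± 9.98 in untreated rdd and 87.8 ± 1.90 in treated rdd. It rose by 1.86 ± 0.07 on the log2 scale with YC4-R4 in Col-0 and fell by 0.82 ± 0.05 in rdd (edgeR adjusted p = 4.6e-22 and 3.2e-15), so among the list genes it had an order of groups like that of AT1G72416. HSP18.5 moved in the opposite directions, at 32.6 ± 1.12, 20.4 ± 0.99, 17.3 ± 1.34 and 24.5 ± 1.74 CPM, and fell by 0.67 ± 0.07 in Col-0 and rose by 0.51 ± 0.07 in rdd (edgeR adjusted p = 8.0e-10 and 9.2e-07). HSP17.4-CIII fell by 0.93 ± 0.13 with YC4-R4 in Col-0 (edgeR adjusted p = 2.8e-07). The mitochondrial HSP23.5-M was lower in rdd with YC4-R4 (-1.32 ± 0.29; edgeR adjusted p = 6.0e-04).

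Among 11 tested HSP70 and HSP110 genes, 2 rose and 4 fell with YC4-R4 in each genotype, and in rdd against Col-0 2 were higher and 8 lower in control soil and 0 higher and 7 lower in treated plants. The cytosolic HSC70-3 fell from 117.1 ± 3.06 CPM in untreated Col-0 to 66.2 ± 3.71 in treated Col-0 (log2 fold change -0.82 ± 0.05; edgeR adjusted p = 2.2e-16), and was at 59.2 ± 2.74 and 46.4 ± 2.45 CPM in the rdd groups. HSC70-2 stood at 36.4 ± 1.17, 22.9 ± 0.16, 19.3 ± 0.73 and 13.3 ± 1.29 CPM over the 4 groups, in the order of HSP70-4. HSC70-1, the main constitutive form, fell by 0.32 ± 0.03 with YC4-R4 in Col-0 (edgeR adjusted p = 1.8e-09). All 5 HSP90 genes were tested: 0 rose and 2 fell with YC4-R4 in Col-0, 2 rose and 3 fell in rdd, and 4 were lower and 0 higher in rdd in either soil. HSP90.3, a constitutive cytosolic form, stood at 177.9 ± 2.78, 124.4 ± 2.20, 113.6 ± 1.78 and 97.1 ± 4.76 CPM, a difference between genotypes of -0.65 ± 0.04 in control soil (edgeR adjusted p = 4.7e-16).

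Of 10 J-domain genes, 8 fell and 0 rose with YC4-R4 in Col-0, and 6 fell and 0 rose in rdd. In rdd against Col-0, 2 were higher and 5 lower in control soil and 2 higher and 6 lower in treated plants. J11 and J8, both plastid proteins, were higher in rdd than in Col-0 in control soil, by 0.87 ± 0.04 and 0.54 ± 0.04 on the log2 scale (edgeR adjusted p = 3.9e-21 and 5.8e-14). J11 went from 359.9 ± 2.97 CPM in untreated rdd to 168.1 ± 6.35 in treated rdd (-1.10 ± 0.04; edgeR adjusted p = 1.3e-23). AT3G14200 was lower in rdd in control soil (-1.74 ± 0.16; edgeR adjusted p = 1.6e-11), and AT2G20560 with YC4-R4 (-1.14 ± 0.17; edgeR adjusted p = 2.4e-06). Among 15 tested co-chaperones and other heat-induced genes, 2 rose and 3 fell with YC4-R4 in Col-0, and 0 rose and 6 fell in rdd. Between genotypes 2 were higher and 8 lower in rdd in control soil, and 1 higher and 6 lower in treated plants. MBF1C, a transcriptional co-activator of the heat response, fell by 1.18 ± 0.16 with YC4-R4 in Col-0, and DREB2A, a drought and heat factor, by 1.04 ± 0.15 (edgeR adjusted p = 1.7e-07 and 4.5e-07). ROF2, an immunophilin, was lower in rdd by -0.64 ± 0.09 in control soil and -0.83 ± 0.09 with YC4-R4 (edgeR adjusted p = 3.4e-07 and 4.0e-09).

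Of 7 chaperonins of plastid and mitochondrion, 5 rose and 0 fell with YC4-R4 in Col-0, and 3 rose and 1 fell in rdd. In rdd against Col-0, 1 was higher and 3 lower in control soil (57.1% called, against 43.9% of all tested genes). In treated plants 7 of 7 were lower, against 14.4% of all tested genes. Their changes were small, as for HSP60-2 (0.31 ± 0.06 with YC4-R4 in Col-0; edgeR adjusted p = 2.8e-05) and HSP60 (-0.29 ± 0.04 for rdd against Col-0 with YC4-R4; edgeR adjusted p = 8.5e-07). Of 13 genes of endoplasmic reticulum chaperones and the unfolded protein response, 9 fell and 0 rose with YC4-R4 in rdd, and 2 rose and 1 fell in Col-0. In rdd 0 were higher and 8 lower than in Col-0 in control soil, and 0 higher and 10 lower in treated plants. BIP2, the luminal HSP70, stood at 210.6 ± 5.94, 201.8 ± 3.33, 166.8 ± 3.79 and 142.8 ± 1.68 CPM, and BZIP60, a factor of the unfolded protein response, at 57.0 ± 1.92, 33.5 ± 3.00, 32.6 ± 0.48 and 29.2 ± 0.80. BZIP60 fell by 0.77 ± 0.06 with YC4-R4 in Col-0 (edgeR adjusted p = 1.8e-13). Among 5 tested HSP100 and Clp genes, 1 rose and 0 fell with YC4-R4 in Col-0, 2 rose and 0 fell in rdd, and in rdd against Col-0 1 was higher and 3 lower in control soil and 1 higher and 2 lower in treated plants. CLPD was higher in rdd in control soil (0.29 ± 0.04; edgeR adjusted p = 4.0e-08), and CLPB3, the plastid relative of HSP101, and CLPB4, the mitochondrial one, were lower (-0.35 ± 0.05 and -0.41 ± 0.09; edgeR adjusted p = 2.2e-07 and 2.4e-04).

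Genes with a like pattern were sought among 18040 genes by Pearson's r of log2 CPM over the 12 libraries, which fall into 4 groups, so r is a description of shared group steps. Nearest to the mean profile of the 7 genes that passed the filter other than AT1G72416 were AT5G24155 (r = 0.974), MOT2 (0.974), AT5G64170 (0.972), AT1G70820 (0.972), UPS2 (0.969) and BTS (0.969). AT5G64170 had means of 45.96, 26.67, 12.60 and 9.440 CPM over the 4 groups. Against the mean of the others, r was 0.924 for HSP101 and for HSP70-4, 0.880 for HSP90.1, 0.850 for HSP17.8, 0.807 for HSP17.4, 0.732 for HSFA2 and -0.09 for HSP70B. Nearest to AT1G72416 were EBF2 (r = 0.997), PYL6 (0.993), PYL5 (0.993), AT1G29670 (0.992), PMT6 (0.991) and PYL4 (0.990). EBF2, an F-box protein that targets the ethylene factor EIN3, had means of 93.57, 144.3, 227.6 and 148.5 CPM, and the abscisic acid receptor PYL6 had 2.320, 8.799, 22.59 and 9.441.

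**Figure D5:**
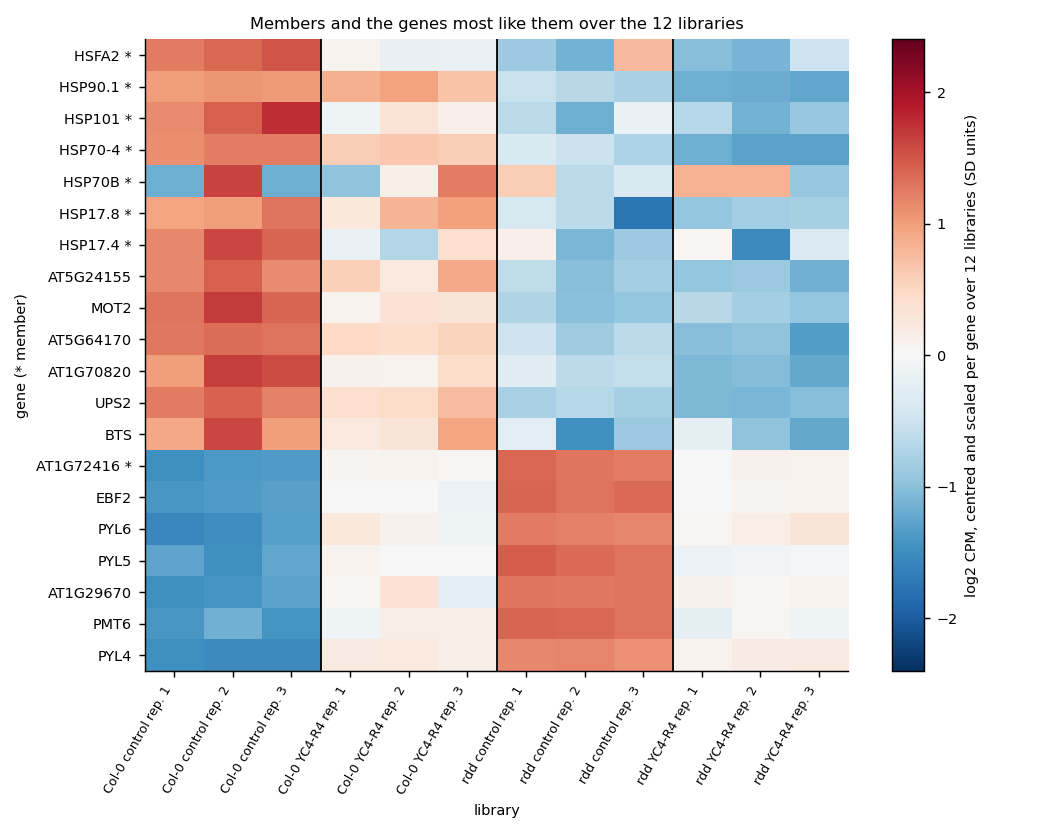
Log2 CPM centred and scaled per gene over the 12 libraries (columns, grouped by label) for the 8 genes that passed the filter (starred) and the 12 genes nearest to their patterns. HSFA2, HSP90.1, HSP101, HSP70-4, HSP17.8 and HSP17.4 have their highest group mean in untreated Col-0, though for HSP17.8 these libraries overlap those of treated Col-0. HSP70B has no group pattern, and AT1G72416 is lowest in untreated Col-0 and highest in untreated rdd.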

How the data were processed

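The authors deposited whole-number read counts per gene for each library. HTSeq 0.9.1, HISAT2 2.1.0 and Trimmomatic 0.36 are listed in the submitters' processing notes, as is the build TAIR10. Neither the annotation release nor the strand setting is given in the sources used here. Groups follow the labels only.

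The low-count filter was edgeR's filterByExpr (edgeR 4.0.16, R 4.3.3), which asked here for about 0.553 CPM in 3 libraries and left 20651 of 33602 genes. After TMM scaling, edgeR's quasi-likelihood fit used all 12 libraries and a mean for each of the 4 groups (8 residual degrees of freedom). Adjusted p-values follow Benjamini and Hochberg over every tested gene, and a call is an adjusted p below 0.05. Treated and untreated plants were compared within each genotype, rdd and Col-0 within each soil, and the treatment effects between genotypes (5 comparisons). The test was tested on simulated data. Alternatives used DESeq2 1.42.0, other scalings and filters, the replicate number as a block, and each library left out.

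The 10 genes and the 9 lists were chosen with earlier results of these data known. Named are the 10 genes, up to 3 called genes with the smallest adjusted p per list and comparison, the 6 genes nearest in pattern, and ROS1, DML2 and DML3; not all are printed. Symbols, coordinates, promoters and coding sequences come from the RefSeq annotation of TAIR10.1, read from its genome. Where nothing says that libraries came from separate plants beyond the term biological replicate, p-values measure only the spread between these libraries.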

Additional observations from a re-analysis of the deposited data

Results flagged for a closer look

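The effect of YC4-R4 differed between the libraries labelled rdd and those labelled Col-0 for the genes below. Each value here is the log2 change with YC4-R4 in rdd minus that in Col-0, with its standard error. A positive value means that the change was less negative or more positive in rdd. Of the tested list genes 38.3% were called for this difference, against 30.6% of all tested genes. Each value draws on all 4 groups, so it shares its libraries with the pairwise comparisons and is not independent of them.

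AT1G72416 had a difference of -3.33 ± 0.07: every Col-0 YC4-R4 library lay above every Col-0 control library, and every rdd YC4-R4 library below every rdd control library. This difference was not tested, since the gene was chosen with its values known.

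The other 33 genes are those, of the 36 list genes called for the interaction, that the rule for named genes names in some comparison. Heat stress transcription factors with a difference were HSFB2A (2.01 ± 0.17), HSFA8 (1.41 ± 0.12), HSFB2B (1.77 ± 0.19), HSFC1 (0.67 ± 0.12), HSFA4A (0.49 ± 0.11) and HSFA7A (-0.57 ± 0.18), with edgeR adjusted p from 1.4e-11 to 0.0140. Of these only HSFA7A had a negative value. The small heat shock proteins were HSP15.4 (-2.69 ± 0.09), HSP18.5 (1.18 ± 0.10) and HSP17.4-CIII (1.15 ± 0.19), with edgeR adjusted p from 1.9e-23 to 8.0e-06.

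HSP70 and HSP90 genes were HSC70-3 (0.48 ± 0.07), HSC70-1 (0.31 ± 0.05), mtHSC70-1 (-0.46 ± 0.06), HSP90.3 (0.29 ± 0.06) and HSP90.6 (-0.32 ± 0.08), with edgeR adjusted p from 1.5e-07 to 0.00153. The Clp ATPases were CLPC1 (0.21 ± 0.05) and CLPB3 (0.23 ± 0.07), with edgeR adjusted p from 4.6e-04 to 0.0108, and the J-domain genes were J11 (-0.81 ± 0.05) and AT3G14200 (0.76 ± 0.25), with edgeR adjusted p from 4.2e-15 to 0.0209. The difference of AT3G14200 had an adjusted p from 0.0530 to 0.0909 (edgeR) when Col-0 YC4-R4 replicate 1, rdd control replicate 2 or 3, or rdd YC4-R4 replicate 2 or 3 was left out.

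Co-chaperones and other heat-induced genes were MBF1C (1.13 ± 0.25), DREB2A (0.55 ± 0.21), P23-1 (-0.27 ± 0.06), HOP1 (-0.30 ± 0.07) and HOP3 (-0.35 ± 0.12), with edgeR adjusted p from 3.6e-04 to 0.0476. HOP3, P23-1 and CPN10 overlap another gene of the count table. Chaperonins were HSP60 (-0.34 ± 0.06), HSP60-2 (-0.33 ± 0.08), HSP60-3A (-0.34 ± 0.09) and CPN10 (-0.20 ± 0.08), with edgeR adjusted p from 1.6e-05 to 0.0432 (all negative). Genes of the endoplasmic reticulum were BZIP60 (0.61 ± 0.08), HSP90.7 (-0.32 ± 0.05), CRT1A (-0.26 ± 0.05), SDF2 (-0.31 ± 0.08), BIP2 (-0.16 ± 0.05) and BIP1 (-0.15 ± 0.05), with edgeR adjusted p from 4.2e-07 to 0.0289; BZIP60 alone was positive.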

How the results depend on the processing

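The counts of called list genes stayed within 1.5 times of the reported ones in all 5 comparisons: 41 with YC4-R4 in Col-0 (39 to 44 leaving out 1 library, 40 to 48 otherwise), 45 in rdd (35 to 45, 39 to 46), 64 between genotypes in control soil (58 to 67, 60 to 68), 56 with YC4-R4 (49 to 57, 51 to 57) and 36 for the interaction (29 to 40, 32 to 36). The median log2 fold change of the 8 genes that passed the low-count filter moved when at least 30 counts in 3 libraries were asked for, a filter that drops the low genes: from -1.15 to -0.885 between genotypes in control soil, -0.672 to -0.440 with YC4-R4, and 0.156 to -0.0520 for the interaction. With only the 2 groups compared in the fit, the second was -0.441. Leaving out 1 library gave -1.21 to -0.993, -0.813 to -0.568 and 0.0120 to 0.254. Over all settings, in the same order, 2, 5 and 2 moved the median by at least its spread within groups. Of single values of the same 8 genes, 693 kept their value within the spread, 5 moved and 1 reversed. The reversed value was that of HSFA2 with YC4-R4 in rdd, 0.246 without rdd control replicate 3 (-0.789 with it, and as low as -1.19 without rdd control replicate 2). Leaving out rdd control replicate 3 also moved HSP17.8 in control soil (-1.14 without it, -1.41 with it). Of the values of the named list genes, 2242 kept their call, 20 lost it and 0 reversed. These genes were picked for the smallest adjusted p, so this does not describe the other list genes. CLPB3 between genotypes with YC4-R4 lost its call in 8 of 18 settings (DESeq2 adjusted p = 0.0654, edgeR adjusted p up to 0.192). The cause was not tested.

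The replicate number as a block gave 41, 44, 64, 56 and 35 called list genes in the same order. Libraries with the same number did not deviate together (r from -0.0434 to 0.0223), so the numbers were not taken as pairs. Depth limits HSFA2, HSP21, HSP17.4, HSP17.8 and HSP17.6II, which had at most 41 counts in a library.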
